A study of Homo sapiens with 6 samples.

Results

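Microtubules are hollow polymers of alpha- and beta-tubulin, and kinesins and dyneins are the motor proteins that move along them. The genes described here are the tubulins, the kinesins, the cytoplasmic and ciliary dyneins and the subunits of dynactin, chosen by their symbols in the deposited count table. Of 20503 genes in the table, 92 carried a matching symbol. The 7 kinesins KIF2C, KIF4A, KIF11, KIF14, KIF18A, KIF20A and KIF23, which work in mitosis, and 9 pseudogenes were left out, which gave 76 members. They are 8 alpha-tubulins, 8 beta-tubulins, 4 gamma-, delta- and epsilon-tubulins, 5 gamma-tubulin complex proteins, 29 kinesins, 4 kinesin light chains, 6 dynein heavy, intermediate and light intermediate chains, 6 dynein light chains and 6 dynactin subunits. Poly(A)-selected RNA was sequenced in 3 libraries of T47D, a human breast cancer line labelled ER-positive, and in 3 libraries of T47D-TR. T47D-TR is a single tamoxifen-resistant subline derived from T47D and kept in 1 µM of the active metabolite 4-hydroxytamoxifen. Both cultures received DMEM, fetal bovine serum and antibiotics, and no drug is given for T47D, so the subline and the drug cannot be told apart. Whether the 3 libraries of a group are separate cultures is not stated, so each p-value rests on a spread between libraries that may be technical.

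As background, alpha- and beta-tubulin form dimers that add to the ends of a microtubule, and gamma-tubulin, held in a ring by the gamma-tubulin complex proteins, starts new ones. Most kinesins walk towards the plus end of a microtubule and carry vesicles, organelles or proteins, while cytoplasmic dynein with its activator dynactin carries cargo towards the minus end. Each tubulin is encoded by several genes, the isotypes, whose proteins differ mostly in an acidic tail at the end of the chain. Cells also keep their tubulin messages in balance, since free tubulin dimers speed the decay of the messages that are being translated. Beta-tubulin is the target of the taxanes used in breast cancer.

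Some of the isotypes are near copies of each other, and this bears on the values given for those. The last 60 coding bases, which encode the acidic tail and the stop codon, are shown for the beta-tubulins that carry most of the message, for the one that rose and for TUBB3. They come from the GENCODE v29 coding sequences of GRCh38, 5′ to 3′. Capitals mark bases that are not identical to TUBB in an alignment.
TUBB: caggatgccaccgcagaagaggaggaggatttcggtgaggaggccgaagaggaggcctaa
TUBB4B: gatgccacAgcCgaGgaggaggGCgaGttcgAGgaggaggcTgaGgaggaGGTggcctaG
TUBB4A: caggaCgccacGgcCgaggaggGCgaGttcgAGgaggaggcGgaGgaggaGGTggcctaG
TUBB3: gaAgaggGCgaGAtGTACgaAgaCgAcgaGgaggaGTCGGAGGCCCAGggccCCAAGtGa
TUBB4B and TUBB4A each had 14 capitals against TUBB, and their coding sequences were 87.3% identical to each other. TUBB3 had 32. Among the alpha-tubulins, 97.2% of the coding bases were identical between TUBA1A and TUBA1B, 96.8% between TUBA1C and TUBA1B, and 85.7% between TUBA4A and TUBA1B. TUBB2A and TUBB2B were 98.1% identical. The sources used here do not say how the authors counted reads that fit several genes, so the split of reads among TUBA1A, TUBA1B and TUBA1C, and between TUBB2A and TUBB2B, is uncertain.

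Of the 76 members, 70 passed the filter on low counts and were tested with edgeR over the whole table. Called genes are those with an adjusted p under 0.05 (Benjamini-Hochberg, over all 15961 tested genes). The fit called 46 of the 70 members, or 65.7%, beside 63.0% of all tested genes. In T47D-TR, 18 members were higher (25.7%, beside 32.5% of all tested genes) and 28 were lower (40.0%, beside 30.5%). The shares of called members were thus near those of genes in general. The 3 libraries of T47D-TR did not overlap those of T47D for 49 members, 19 higher and 30 lower, while 68.3% of all tested genes did not overlap (34.6% higher and 33.8% lower). Changes of at least 2-fold were found for 4 members that were higher, TUBA1A, TUBB4A, KIF3C and KIF13B, and for 1 that was lower, TUBA8 (10.1% and 3.87% of all tested genes). The median log2 fold change, T47D-TR over T47D, was -0.08 over the 70 members and 0.0 over all tested genes.

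**Figure D1:**
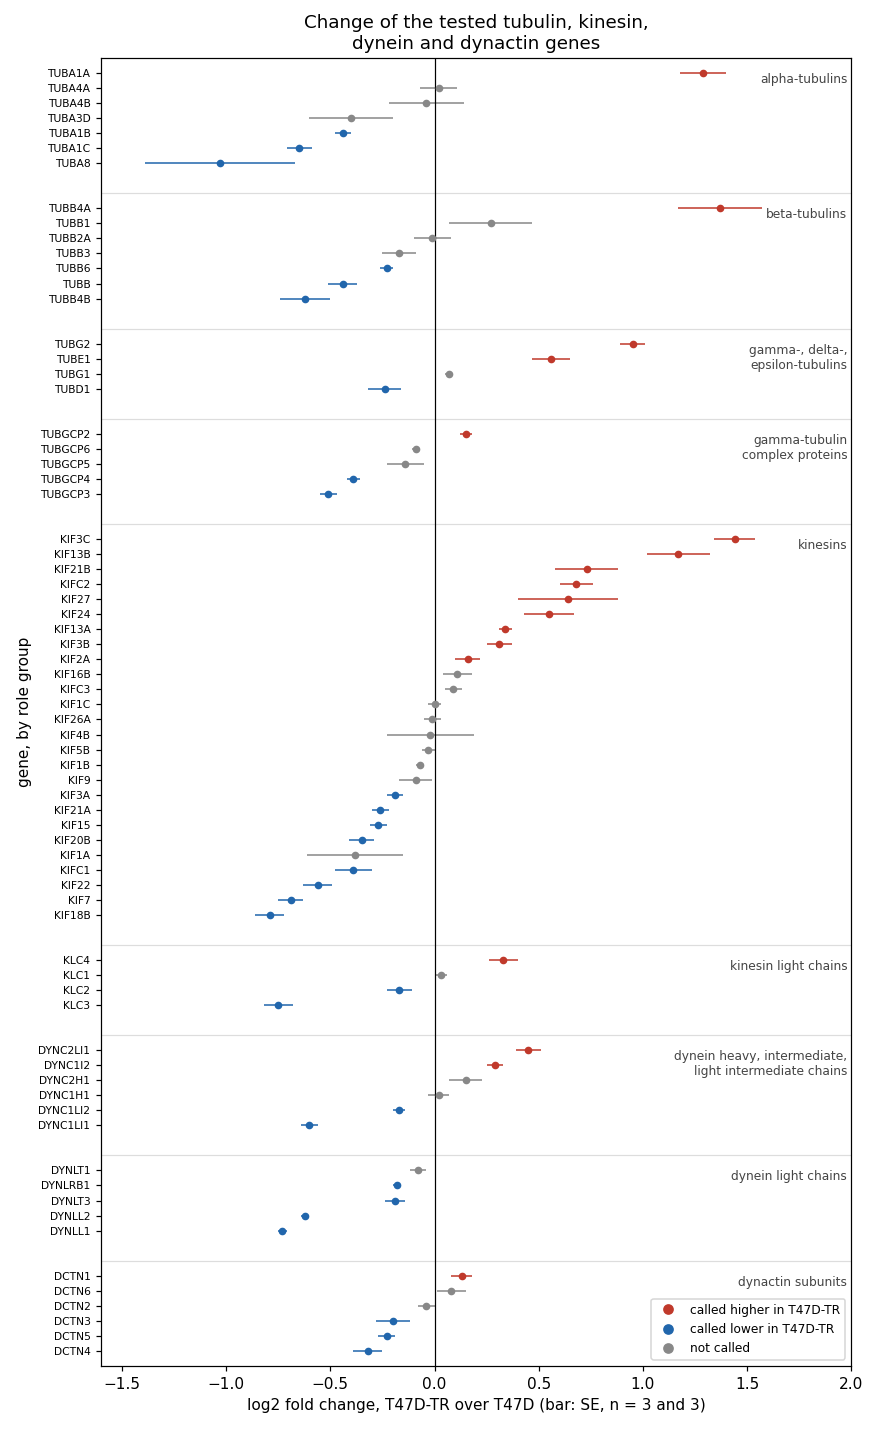
The log2 fold change of each of the 70 tested members (T47D-TR over T47D, horizontal axis) with its SE, grouped by role and coloured by the edgeR call. The values run from -1.03 (TUBA8) to 1.44 (KIF3C), with 18 members called higher and 28 called lower.

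The direction was set beside the level in T47D, which is also the base of the fold change. Sorting genes by that level tilts low genes towards rises and high genes towards falls by construction. Genes low in T47D could also pass the filter through T47D-TR alone, so the counts by level are a description only. Levels are given as CPM, the counts of a gene relative to the TMM-adjusted library size. Of the 23 members at 100 CPM or more in T47D, 15 were lower and 2 higher. All 2265 genes at that level leaned the same way, with 55.9% lower and 22.2% higher. Of the 34 members between 10 and 100 CPM, 12 were lower (35.3%) and 9 higher (26.5%), beside 35.2% and 34.1% of all genes at that level. Of the 13 tested members under 10 CPM, 1 was lower and 7 were higher. Among all genes under 10 CPM, 34.3% of those tested were higher and 16.1% lower.

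**Figure D2:**
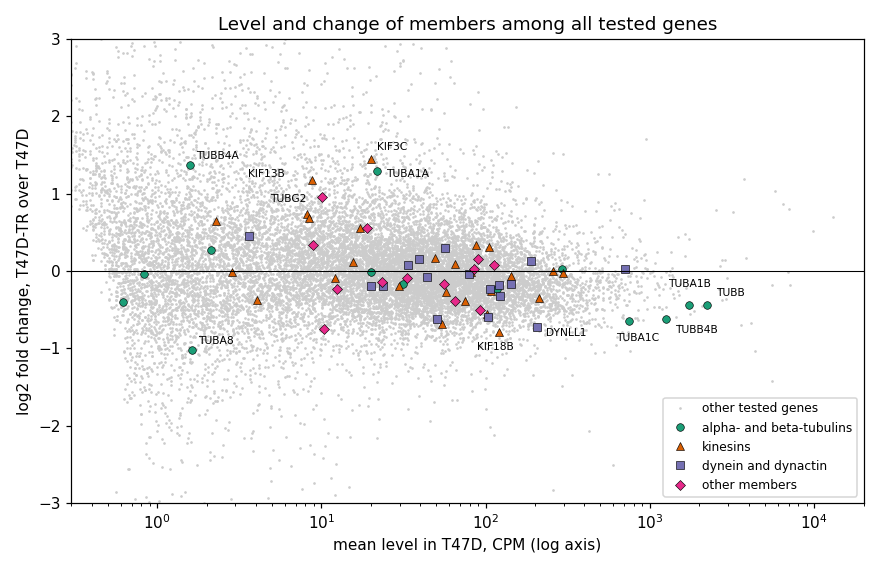
The mean level in T47D (CPM, log axis) against the log2 fold change, T47D-TR over T47D, for members (coloured symbols) and other tested genes (grey points), of which 415 lie outside the axes. The abundant tubulins TUBB, TUBA1B, TUBB4B and TUBA1C lie below 0 at the right. The members that rose at least 2-fold (TUBA1A, TUBB4A, KIF3C and KIF13B) were under 25 CPM in T47D, the base of the fold change.

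Among the alpha-tubulins, the main isotypes fell and a minor isotype rose. TUBA1B, TUBA1C and TUBA8 were called lower, TUBA1A was called higher, and TUBA3D, TUBA4A and TUBA4B were not called. TUBA1B, the most abundant alpha-tubulin of dividing cells (chromosome 12, 49127782 to 49131395, minus strand, GRCh38), had 1750, 1741 and 1728 CPM in the T47D libraries and 1333, 1206 and 1303 CPM in the T47D-TR libraries. All T47D-TR libraries lay below all T47D libraries (log2 fold change -0.44 ± 0.04 SE, edgeR adjusted p = 1.08e-06). TUBA1C (chromosome 12, 49227926 to 49274600, plus strand) had 725, 775 and 732 CPM in T47D and 487, 440 and 497 CPM in T47D-TR, again without overlap (-0.65 ± 0.06, edgeR adjusted p = 2.38e-07).

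TUBA1A lies between those 2 genes on chromosome 12 (49184795 to 49189080, minus strand) and is best known as the main alpha-tubulin of developing neurons. It had 21.6, 22.7 and 21.0 CPM in T47D and 50.3, 48.7 and 61.1 CPM in T47D-TR. Every T47D-TR library was above every T47D library, and T47D-TR replicate 3 was the highest. The mean rose from 21.7 ± 0.861 to 53.4 ± 6.73 CPM (SD, n = 3), a log2 fold change of 1.29 ± 0.11 (edgeR adjusted p = 7.96e-08). TUBA1A made up 0.754% to 0.799% of the summed alpha-tubulin CPM in T47D and 2.30% to 2.81% in T47D-TR. The opposite directions of TUBA1A and TUBA1B stand beside the near identity of their coding bases, and which reads were assigned to which gene was not tested.

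TUBA4A, whose tail lacks the terminal tyrosine that most alpha-tubulins encode, had 286, 294 and 295 CPM in T47D and 313, 259 and 315 CPM in T47D-TR. The groups overlapped (log2 fold change 0.02 ± 0.09, edgeR adjusted p = 0.801), with T47D-TR replicate 2 the lowest of all, and without that library TUBA4A was called higher (0.11, edgeR adjusted p = 0.044). Since the summed alpha-tubulin level was lower, its share went from 10.3% to 10.6% in T47D to 13.2% to 14.5% in T47D-TR. TUBA4A overlaps STK16 and TUBA4B on chromosome 2. TUBA8, an isotype of few tissues, had 1.78, 1.07 and 2.04 CPM in T47D and 0.622, 0.663 and 1.13 CPM in T47D-TR. These values overlapped. The call (-1.03 ± 0.36, edgeR adjusted p = 0.0157) was lost without T47D replicate 1 (adjusted p = 0.0547) or 3 (0.0776) and without T47D-TR replicate 1 (0.0628) or 2 (0.0578), in each case with edgeR.

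The beta-tubulins showed the same arrangement. TUBB, TUBB4B and TUBB6 were called lower, TUBB4A was called higher, and TUBB1, TUBB2A and TUBB3 were not called. TUBB, the common beta-tubulin of dividing cells (chromosome 6, 30720352 to 30725422, plus strand), had 2257, 2249 and 2187 CPM in T47D and 1651, 1504 and 1766 CPM in T47D-TR. TUBB4B (chromosome 9, 137241287 to 137243707, plus strand), also widely expressed, had 1210, 1265 and 1269 CPM in T47D and 802, 701 and 937 CPM in T47D-TR. For both, each T47D-TR library lay below each T47D library, with T47D-TR replicate 2 the lowest and replicate 3 the nearest to T47D. The log2 fold change was -0.44 ± 0.07 for TUBB (edgeR adjusted p = 6.91e-06) and -0.62 ± 0.12 for TUBB4B (edgeR adjusted p = 1.85e-05). TUBB6 had 118, 113 and 120 CPM in T47D and 97.4, 99.0 and 102 CPM in T47D-TR, a smaller fall without overlap (-0.23 ± 0.03, edgeR adjusted p = 0.00081).

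TUBB4A, a beta-tubulin best known from the brain (chromosome 19, 6494319 to 6502848, minus strand), had 1.35, 1.99 and 1.39 CPM in T47D and 4.25, 4.54 and 3.49 CPM in T47D-TR. The T47D-TR libraries were all higher (log2 fold change 1.37 ± 0.20, edgeR adjusted p = 8.93e-05). It stayed a trace of the beta-tubulin message, with 0.037% to 0.0541% of the summed beta-tubulin CPM in T47D and 0.122% to 0.192% in T47D-TR. TUBB3, the isotype used as a neuronal marker and studied in taxane resistance, had 33.2, 30.9 and 29.6 CPM in T47D and 25.8, 28.0 and 29.7 CPM in T47D-TR. The groups overlapped and the gene was not called (-0.17 ± 0.08, edgeR adjusted p = 0.0635). It was called lower without T47D-TR replicate 3 (-0.22, edgeR adjusted p = 0.00929). TUBB2A had 18.4, 22.1 and 19.5 CPM in T47D and 20.7, 18.7 and 20.4 CPM in T47D-TR, with overlap (edgeR adjusted p = 0.948). TUBB1, the beta-tubulin of platelets, had 1.77 to 2.75 CPM in T47D against 2.44 to 2.70 CPM in T47D-TR (edgeR adjusted p = 0.296).

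**Figure D3:**
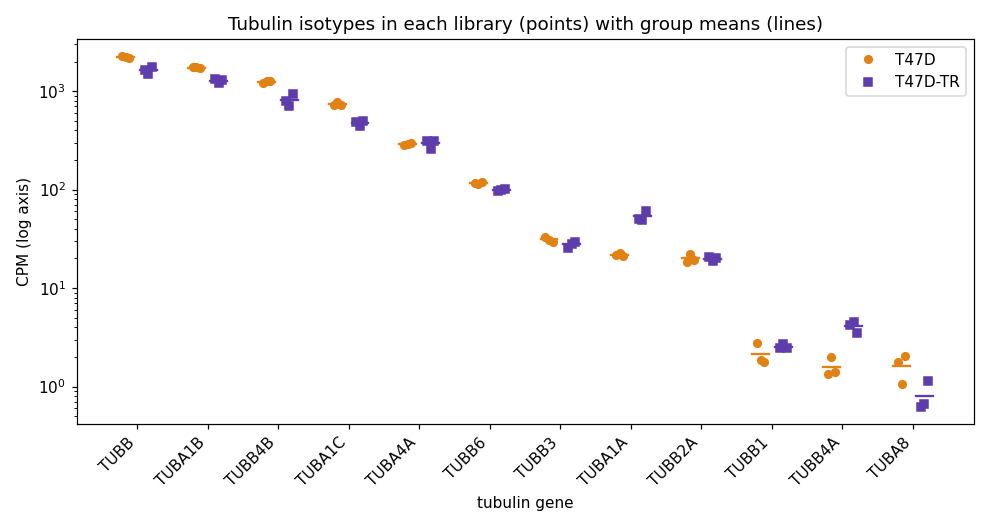
The level of 12 alpha- and beta-tubulin genes (CPM, log axis) in each library (circles for T47D, squares for T47D-TR), with lines at the group means. TUBB, TUBA1B, TUBB4B, TUBA1C and TUBB6 were lower in all T47D-TR libraries, and TUBA1A and TUBB4A were higher.

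Added up, the alpha-tubulins had 2785, 2836 and 2779 CPM in T47D and 2186, 1956 and 2178 CPM in T47D-TR, a ratio of means of 0.752. The beta-tubulins had 3640, 3684 and 3629 CPM in T47D and 2604, 2358 and 2861 CPM in T47D-TR, a ratio of 0.714. Neither sum overlapped between groups, and T47D-TR replicate 2 was the lowest in both. On the scale of CPM per kb of exon, which allows genes to be compared, TUBB (664 CPM per kb), TUBB4B (591) and TUBA1B (487) ranked 15, 20 and 29 in T47D among the 13528 genes ranked by length-scaled level. TUBA1C followed among the members at 161 and TUBA4A at 71.5 CPM per kb. In bulk RNA, fewer cells of a type and less RNA per cell cannot be told apart. Transcripts of the mitochondrial genome took 6.25% to 6.40% of T47D counts against 10.04% to 10.42% of T47D-TR counts. Their part in these levels was not tested.

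Promoter sequence is shown for pairs of isotypes of like name that went in opposite directions, TUBA1A against TUBA1B and TUBB4A against TUBB4B. In coding bases TUBB4A was closer to TUBB2A (90.1% identical) than to TUBB4B (87.3%). Each window runs from 250 bases before to 50 bases after the RefSeq start of the gene (GRCh38.p14), 5′ to 3′ on the strand of the gene. The windows are chr12:49189031-49189330 (minus strand) for TUBA1A, chr12:49131346-49131645 (minus) for TUBA1B, chr19:6502799-6503098 (minus) for TUBB4A and chr9:137241037-137241336 (plus) for TUBB4B. Capitals mark the letters CCAAT on either strand (ATTGG when read on the strand shown).
TUBA1A: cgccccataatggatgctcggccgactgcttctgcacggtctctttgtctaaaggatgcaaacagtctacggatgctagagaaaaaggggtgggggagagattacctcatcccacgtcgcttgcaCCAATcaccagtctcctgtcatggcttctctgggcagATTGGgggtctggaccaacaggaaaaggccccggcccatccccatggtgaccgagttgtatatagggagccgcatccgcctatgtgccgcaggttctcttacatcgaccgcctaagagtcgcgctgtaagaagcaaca
TUBA1B: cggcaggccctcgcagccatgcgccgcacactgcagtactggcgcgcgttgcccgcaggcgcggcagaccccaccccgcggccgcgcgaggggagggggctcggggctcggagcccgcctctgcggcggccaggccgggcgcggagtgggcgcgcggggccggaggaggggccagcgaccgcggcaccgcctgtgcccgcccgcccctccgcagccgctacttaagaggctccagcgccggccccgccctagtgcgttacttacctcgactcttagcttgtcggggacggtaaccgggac
TUBB4A: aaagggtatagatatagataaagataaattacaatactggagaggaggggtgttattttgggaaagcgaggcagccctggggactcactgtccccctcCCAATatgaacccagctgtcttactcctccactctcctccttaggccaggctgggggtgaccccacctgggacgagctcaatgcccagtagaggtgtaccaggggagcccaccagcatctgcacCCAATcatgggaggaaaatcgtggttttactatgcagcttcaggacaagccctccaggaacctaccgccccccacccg
TUBB4B: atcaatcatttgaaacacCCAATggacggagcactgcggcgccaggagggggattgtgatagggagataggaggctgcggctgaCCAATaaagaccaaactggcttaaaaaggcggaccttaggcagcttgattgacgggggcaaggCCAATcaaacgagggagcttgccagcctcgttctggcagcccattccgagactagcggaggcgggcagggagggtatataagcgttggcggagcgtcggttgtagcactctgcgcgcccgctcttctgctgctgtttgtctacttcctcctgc
CCAAT was found 2 times in the TUBA1A window, 0 times in TUBA1B, 2 times in TUBB4A and 3 times in TUBB4B. TATAAA, searched on both strands, was in none of these windows. The GC box letters GGGCGG were found 3 times in TUBA1B and 1 time in TUBB4A. The GC content was 55.7% for TUBA1A and 77.0% for TUBA1B, 54.7% for TUBB4A and 57.3% for TUBB4B.

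The RefSeq table held a window for 65 of the 76 members, and 27 of them (41.5%) contained CCAAT, as did 35.7% of all 27305 windows in the table. By direction, 6 of 13 members called higher (46.2%) and 10 of 25 called lower (40.0%) held it. GGGCGG was in 69.2% of member windows and 68.7% of windows of tested genes. CCAAT thus stood in isotypes that rose and in isotypes that fell, and these letter matches are descriptions of the windows only.

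Of the 4 gamma-, delta- and epsilon-tubulins, 2 rose and 1 was called lower. TUBG1, which encodes the gamma-tubulin that starts microtubules at the centrosome, had 113, 115 and 109 CPM in T47D and 118, 118 and 119 CPM in T47D-TR. The values did not overlap but the difference was small and not called (log2 fold change 0.07 ± 0.02, edgeR adjusted p = 0.172). Its close paralog TUBG2, which lies near it on chromosome 17 (42659284 to 42667006, plus strand), had 10.3, 10.3 and 9.48 CPM in T47D and 18.7, 19.1 and 20.7 CPM in T47D-TR. TUBG2 rose without overlap (0.95 ± 0.06, edgeR adjusted p = 1.17e-06). TUBE1, the epsilon-tubulin needed for the triplet microtubules of centrioles, had 20.5, 17.8 and 18.6 CPM in T47D and 25.4, 28.7 and 29.8 CPM in T47D-TR, and it also rose (0.56 ± 0.09, edgeR adjusted p = 9.03e-05). TUBD1, the delta-tubulin, was called lower (-0.24 ± 0.08, edgeR adjusted p = 0.047), a call lost with DESeq2 and without T47D replicate 1 or 3 or T47D-TR replicate 1 or 2.

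Of the 5 gamma-tubulin complex proteins, 2 fell. TUBGCP3, which binds gamma-tubulin in the small core complex, had 95.6, 91.7 and 91.9 CPM in T47D and 68.2, 65.9 and 62.5 CPM in T47D-TR (-0.51 ± 0.04, edgeR adjusted p = 2.78e-06). TUBGCP4, a subunit of the larger ring, had 63.0, 66.2 and 66.7 CPM in T47D and 50.2, 49.8 and 49.1 CPM in T47D-TR (-0.39 ± 0.03, edgeR adjusted p = 2.55e-05). Both were lower in every T47D-TR library. TUBGCP2, the partner of TUBGCP3 in the core, had 87.9 to 91.7 CPM in T47D against 98.0 to 104 CPM in T47D-TR. Its call as higher (0.15 ± 0.03, edgeR adjusted p = 0.0137) was lost on library size alone (0.0532) and without T47D replicate 3 (0.0736) or T47D-TR replicate 1 (0.0634). TUBGCP5 and TUBGCP6 were not called. TUBGCP4 overlaps TP53BP1, which had 22441 counts over the 6 libraries, and TUBGCP2 overlaps ZNF511, which had 3160.

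Of 26 tested kinesins, 9 were higher (34.6%) and 8 lower (30.8%), near the 32.5% and 30.5% of all tested genes. KIF3C gave the largest rise among the 70 tested members. It encodes a kinesin-2 motor that pairs with KIF3A (chromosome 2, 25926598 to 25982497, minus strand). KIF3C had 21.6, 20.3 and 18.1 CPM in T47D and 57.5, 56.1 and 49.3 CPM in T47D-TR. Every T47D-TR library was far above every T47D library (log2 fold change 1.44 ± 0.10, edgeR adjusted p = 1.7e-08). Of the other kinesin-2 genes, KIF3B had 111, 100 and 104 CPM in T47D and 135, 132 and 124 CPM in T47D-TR and rose (0.31 ± 0.06, edgeR adjusted p = 0.000264). KIF3A, the shared partner, had 28.9 to 30.5 CPM in T47D against 24.7 to 26.8 CPM in T47D-TR and was called lower (-0.19 ± 0.04, edgeR adjusted p = 0.0229), a call lost with DESeq2 and without T47D replicate 1. KIF3C thus held 12.9% of the summed kinesin-2 CPM in T47D on average and 25.8% in T47D-TR.

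KIF13B, a kinesin-3 motor for membrane and signalling cargo (chromosome 8, 29067278 to 29263388, minus strand), had 9.75, 8.13 and 8.57 CPM in T47D and 19.2, 23.1 and 17.1 CPM in T47D-TR. It rose without overlap (1.17 ± 0.15, edgeR adjusted p = 3.48e-06). Its paralog KIF13A, which moves recycling endosomes, had 86.7 to 88.8 CPM in T47D against 109 to 115 CPM in T47D-TR (0.34 ± 0.03, edgeR adjusted p = 3.52e-05). The other kinesin-3 genes KIF1A, KIF1B, KIF1C and KIF16B were not called. KIF21B, which also restrains microtubule growth, had 8.35, 7.57 and 8.79 CPM in T47D and 11.2, 15.7 and 14.1 CPM in T47D-TR (0.73 ± 0.15, edgeR adjusted p = 0.000298), while its paralog KIF21A fell from 108 to 89.9 CPM on average. KIFC2, a minus-end kinesin found mostly in neurons, had 8.38 ± 0.818 CPM (SD, n = 3) in T47D and 13.5 ± 0.487 CPM in T47D-TR and rose without overlap (0.68 ± 0.08, edgeR adjusted p = 7.8e-05).

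Kinesins tied to the cilium and the centriole went both ways. KIF24, which takes microtubules apart at the mother centriole, had 18.6, 14.7 and 18.2 CPM in T47D and 23.9, 24.5 and 27.1 CPM in T47D-TR (0.55 ± 0.12, edgeR adjusted p = 0.000264). KIF7, which acts at the tip of the cilium in Hedgehog signalling, had 54.3, 55.3 and 54.0 CPM in T47D and 32.6, 32.7 and 36.6 CPM in T47D-TR (-0.69 ± 0.06, edgeR adjusted p = 1.02e-06). KIF24 was higher and KIF7 lower in every T47D-TR library. The paralog of KIF7, KIF27, had 2.14 to 2.35 CPM in T47D and 3.01, 2.86 and 4.86 CPM in T47D-TR. It was called higher (0.64 ± 0.24, edgeR adjusted p = 0.0249), but without T47D-TR replicate 3, the highest library, the value was 0.37 and edgeR adjusted p = 0.121. That call was also lost with voom and without any single T47D library. KIF7 and KIF24 each overlap another gene of the table, TICRR and UBAP1 among them.

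The rule sets aside 7 mitotic kinesins, yet the members include others known for work in the spindle. KIF15, KIF18B, KIF20B, KIF22, KIFC1, KIF2A and KIF4B were picked out for this role after their values were seen. Of these 7, 5 fell, 1 was called higher and 1 was not called, while of the 19 other tested kinesins 3 fell and 8 rose (all tested genes: 30.5% lower and 32.5% higher). A split picked in this way is a description only. KIF18B, which shortens astral microtubules, had 120, 122 and 117 CPM in T47D and 76.0, 64.2 and 67.3 CPM in T47D-TR, the largest fall among the tested kinesins (-0.79 ± 0.07, edgeR adjusted p = 2.75e-07). KIF22, which pushes chromosome arms, had 101, 102 and 102 CPM in T47D and 69.4, 63.4 and 74.3 CPM in T47D-TR (-0.56 ± 0.07, edgeR adjusted p = 3.68e-06). KIF20B, which acts in cytokinesis, had 204, 202 and 223 CPM in T47D and 170, 166 and 156 CPM in T47D-TR (-0.35 ± 0.06, edgeR adjusted p = 6.89e-05). None of these 3 overlapped between groups. KIFC1, which clusters centrosomes, and KIF15, which helps to keep the spindle bipolar, also fell, by 0.39 and by 0.27 on the log2 scale. KIF2A, which shortens microtubules from their ends, was called higher (0.16 ± 0.06, edgeR adjusted p = 0.0322), a call lost with DESeq2, with voom, on library size alone, without any single T47D library and without T47D-TR replicate 2.

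Of the 7 mitotic kinesins that were left out, KIF23, KIF11, KIF20A, KIF14, KIF2C and KIF4A were lower (log2 fold changes of -0.70 to -0.29). KIF18A was higher (0.25). Without the spindle kinesins, 17 of 63 tested members were higher (27.0%, beside 32.5% of all tested genes) and 23 lower (36.5%, beside 30.5%). The summed level of the spindle kinesins among the members was 607 to 630 CPM in T47D against 455 to 477 CPM in T47D-TR. That of the other kinesins was 1316 to 1340 CPM and 1371 to 1398 CPM, a separation that was lost on library size alone. KIF4B is a near copy of KIF4A, so the split of reads behind its low level (2.87 and 2.85 CPM on average) is uncertain.

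The cargo kinesins KIF5B and KIF1C were not called. KIF5B, the heavy chain of conventional kinesin, had 293, 291 and 302 CPM in T47D and 284, 299 and 288 CPM in T47D-TR (-0.03 ± 0.03 on the log2 scale, edgeR adjusted p = 0.596). KIF1C, a fast vesicle motor, had 261, 265 and 249 CPM in T47D and 264, 256 and 253 CPM in T47D-TR (0.00 ± 0.03, edgeR adjusted p = 0.978). Both genes overlapped between groups. Of the light chains that link KIF5 heavy chains to cargo, KLC3 fell from 10.0, 10.5 and 10.7 CPM to 6.27, 6.58 and 5.63 CPM (-0.75 ± 0.07, edgeR adjusted p = 6e-05), in a gene that overlaps ERCC2. KLC1 was not called (0.03 ± 0.03). KLC2 (-0.17 ± 0.06, edgeR adjusted p = 0.0324) and KLC4 (0.33 ± 0.07, edgeR adjusted p = 0.0136) were called lower and higher. The KLC2 call was lost with DESeq2 and without T47D replicate 1 or 2 or T47D-TR replicate 2 or 3. The KLC4 call was lost without T47D replicate 1 and with voom after quantile normalization, where the value was 0.13 (limma adjusted p = 0.279).

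In the dynein motor the heavy chain was not called, while most of the smallest subunits fell. DYNC1H1, the heavy chain that walks on the microtubule, had 745, 703 and 681 CPM in T47D and 731, 744 and 688 CPM in T47D-TR, with overlap (0.02 ± 0.05, edgeR adjusted p = 0.676). DYNC1LI1, a light intermediate chain that binds cargo adaptors, had 105, 105 and 99.9 CPM in T47D and 66.8, 71.8 and 66.2 CPM in T47D-TR. It fell without overlap (-0.60 ± 0.04, edgeR adjusted p = 7.05e-07), and the paralog DYNC1LI2, with 140, 143 and 145 CPM in T47D and 125, 132 and 124 CPM in T47D-TR, was lower by less (-0.17 ± 0.03, edgeR adjusted p = 0.00633). The intermediate chain DYNC1I2, which binds dynactin, had 56.4, 59.3 and 54.7 CPM in T47D and 70.3, 67.7 and 70.9 CPM in T47D-TR and rose (0.29 ± 0.04, edgeR adjusted p = 0.000358). Of the dynein of cilia, DYNC2LI1 was called higher (0.45 ± 0.06, edgeR adjusted p = 0.0126, not called with DESeq2 or voom) and DYNC2H1 was not called (0.15 ± 0.08).

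Of the 5 tested dynein light chains, 4 were called lower and 0 higher, and all 5 were lower without overlap, beside 30.5% of all tested genes called lower and 33.8% lower without overlap. DESeq2 called 3 of the 5 lower. DYNLL1, a small dimer that also binds many proteins outside dynein (chromosome 12, 120469842 to 120498493, plus strand), had 206, 204 and 204 CPM in T47D and 122, 121 and 127 CPM in T47D-TR. The spread within each group was small beside the gap (-0.73 ± 0.02, edgeR adjusted p = 2.32e-08). Its paralog DYNLL2 (chromosome 17, 58083419 to 58095542, plus strand) had 50.9, 50.5 and 50.6 CPM in T47D and 33.0, 32.1 and 33.9 CPM in T47D-TR, a fall of like size (-0.62 ± 0.02, edgeR adjusted p = 1.04e-06). DYNLRB1, a light chain of the roadblock family, had 117, 121 and 123 CPM in T47D and 106, 106 and 107 CPM in T47D-TR (-0.18 ± 0.02, edgeR adjusted p = 0.00355). DYNLT3 was called lower (-0.19 ± 0.05, edgeR adjusted p = 0.0432) and DYNLT1 was not (-0.08 ± 0.04, edgeR adjusted p = 0.275). The call of DYNLT3 was lost with DESeq2 and without any 1 of the libraries but T47D-TR replicate 3. DYNLL1 overlaps NRAV, which had 2202 counts in all.

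The log2 fold changes of the 6 dynactin subunits ran from -0.32 to 0.13, with 3 called lower and 1 higher. DCTN4, a subunit of the pointed end of the complex, had 125, 124 and 119 CPM in T47D and 99.5, 106 and 89.8 CPM in T47D-TR (-0.32 ± 0.07, edgeR adjusted p = 0.000488). DCTN5, from the same end, had 112, 105 and 105 CPM in T47D and 91.9, 88.1 and 94.1 CPM in T47D-TR (-0.23 ± 0.04, edgeR adjusted p = 0.00122). Both were lower in every T47D-TR library. DCTN1, the large arm that touches the microtubule, had 184 to 192 CPM in T47D against 198 to 220 CPM in T47D-TR. Its call as higher (0.13 ± 0.05, edgeR adjusted p = 0.0356) was lost on library size alone, without any single T47D library and without T47D-TR replicate 3. DCTN3 was called lower (-0.20 ± 0.08, edgeR adjusted p = 0.0429), a call lost with DESeq2 and without T47D replicate 2 or 3 or T47D-TR replicate 1 or 2, and DCTN2 and DCTN6 were not called.

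**Figure D4:**
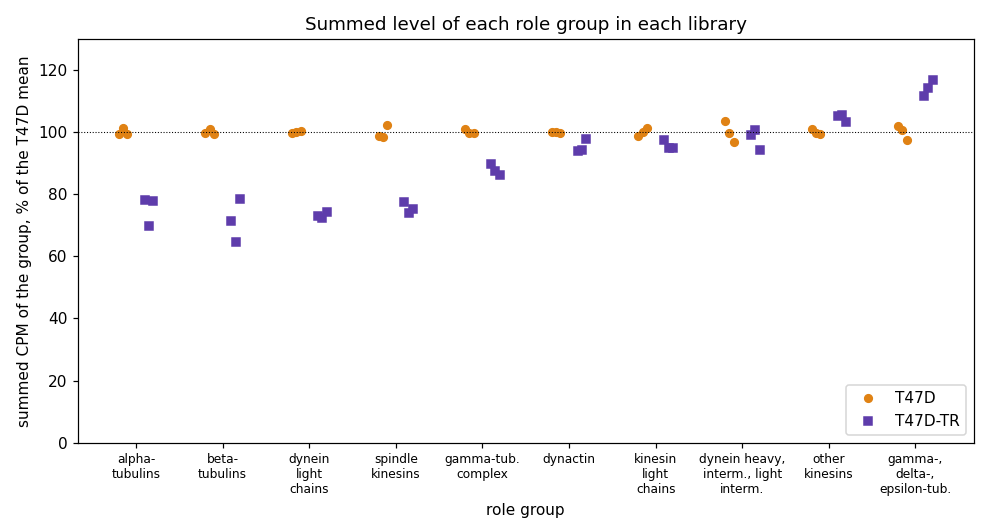
The summed CPM of each role group in each library as a percentage of the T47D mean (circles for T47D, squares for T47D-TR). The alpha-tubulins, beta-tubulins, dynein light chains and spindle kinesins (a group picked after its values were seen) lie lowest in T47D-TR, with ratios of means of 0.752, 0.714, 0.732 and 0.756, and the gamma-, delta- and epsilon-tubulins lie highest at 1.15.

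The filter removed 6 members. TUBAL3, an alpha-tubulin-like gene, had 0 counts over the T47D libraries and 16 over the T47D-TR libraries, at least 5.43-fold higher in CPM against a floor of 3 counts over the T47D group. KIF17, a kinesin-2 gene best known from dendrites and cilia, had 30 and 3 counts, a ratio of 0.102 with a 95% interval of 0.0199 to 0.327. These exact (Clopper-Pearson) intervals and floors cover counting error only. KIF12 had 6 and 16 counts, TUBB2B 11 and 3, KIF26B 22 and 17, and DYNLRB2 10 and 6. In the authors' deposited table the false discovery rate was 0.00231 for TUBAL3 and 0.00276 for KIF17. There, 13 members were higher and 24 lower at a false discovery rate under 0.05, beside 44.4% of its genes in either direction. The authors' deposited table and edgeR shared 35 called members, and no tested member differed in sign.

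Genes that fold, modify and bind tubulin were read from the same fit. Of 22 folding genes (tubulin cofactors, prefoldin and the chaperonin that folds new tubulin), 14 were lower (63.6%) and 3 higher (13.6%), beside 30.5% and 32.5% of all tested genes. TCP1, a chaperonin subunit, fell from 491 to 302 CPM on average (-0.70, edgeR adjusted p = 9.85e-09), and TTC5, which recognises nascent tubulin when tubulin messages are degraded, fell from 17.8 to 10.3 CPM (-0.79, edgeR adjusted p = 3.07e-05). TBCEL, a relative of the cofactors that takes tubulin apart, rose from 17.2 to 30.3 CPM (0.82, edgeR adjusted p = 1.8e-06). The median of this list was -0.27, beside 0.0 for all tested genes.

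Of 17 tested tubulin-modifying enzymes, 7 were higher (41.2%) and 6 lower (35.3%), beside 32.5% and 30.5% of all tested genes. Of 28 tested microtubule-associated and plus-end proteins, 13 were higher (46.4%) and 7 lower (25.0%). VASH2, a carboxypeptidase that removes the terminal tyrosine of alpha-tubulin, fell from 2.17 to 0.497 CPM (-2.10, edgeR adjusted p = 9.55e-05), while TTLL5 and TTLL7, which add glutamates to the tails, both rose by 0.62 on the log2 scale (edgeR adjusted p = 5.55e-07 and 5.18e-05). The count of enzymes called lower was 3 without T47D replicate 1 or T47D-TR replicate 2, and 2 without T47D replicate 2. DCLK1, a doublecortin-like kinase on microtubules, rose from 2.01 to 43.3 CPM (4.41, edgeR adjusted p = 1.17e-09), and MAP1B, a structural microtubule protein of neurons, from 23.9 to 96.7 CPM (2.02, edgeR adjusted p = 6.92e-08). MAPRE1, the end-binding protein at growing plus ends, fell from 277 to 217 CPM (-0.35, edgeR adjusted p = 1.25e-05).

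Of 21 tested partners and adaptors of dynein and dynactin, 7 were higher (33.3%) and 8 lower (38.1%), beside 32.5% and 30.5% of all tested genes. The adaptor HOOK1 fell from 23.8 to 11.2 CPM (-1.09, edgeR adjusted p = 3.36e-07), while the relative HOOK2 rose from 17.3 to 30.0 CPM (0.79, edgeR adjusted p = 1.3e-05). Of 11 kinesin cargo adaptors, 4 were higher (36.4%) and 3 lower (27.3%), near the same shares of all tested genes. Among them, the scaffold gene MAPK8IP3 fell from 43.5 to 31.9 CPM (-0.44, edgeR adjusted p = 0.000349).

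Several members that rose are best known from neurons, so markers of other cells were read beside them. Of 12 neuronal markers, 5 were in the table, with summed levels of 8.18 to 10.5 CPM in T47D against 11.8 to 17.9 CPM in T47D-TR, and none of the 5 was at 0. SNAP25 rose from 0.981 to 4.70 CPM, and MAP2 had 6.66 and 8.09 CPM without a call. RBFOX3, SYP and SYT1 were under 1 CPM in both groups and were not tested. RBFOX3 was lower in every T47D-TR library (means of 0.672 CPM in T47D and 0.202 CPM in T47D-TR), while SYP and SYT1 overlapped. Of 9 markers of ciliated cells, 4 were in the table, at 5.92 to 6.38 CPM and 3.98 to 4.50 CPM, nearly all from DNAH5. Of 13 markers of fibroblasts, immune and endothelial cells, 10 were in the table, with 37.4 to 40.9 CPM and 45.2 to 52.5 CPM in sum. Single markers moved far in opposite directions. PECAM1, an adhesion molecule of endothelial cells, rose from 0.669 to 27.3 CPM (5.33, edgeR adjusted p = 1.17e-10). LUM, a matrix proteoglycan of fibroblasts, fell from 13.9 to 0.253 CPM (-5.75, edgeR adjusted p = 7.43e-10), and PDGFRB was also lower (-0.67, edgeR adjusted p = 0.000919). COL1A1 was not called, and the other 6 were too low to be tested. Of these, COL1A2 had 0 counts in each T47D library and 0, 0 and 22 in T47D-TR replicates 1, 2 and 3. DCN had 0 in each T47D library and 4, 0 and 19 in T47D-TR, so both were highest in T47D-TR replicate 3. The part of other cells in the members' levels was not tested. Of 10 luminal breast markers, 9 were in the table with 2105 to 2187 CPM and 2578 to 2971 CPM, most of it from KRT8 and KRT18. Of the 8 tested, 6 were higher (75.0%) and 2 lower (25.0%), beside 32.5% and 30.5% of all tested genes. Among the higher ones were KRT19 (2.01) and XBP1 (1.35). FOXA1 (5.64 CPM in T47D and 10.7 CPM in T47D-TR) and CDH1 (2.12 and 5.50 CPM) were also higher, but at low levels. EPCAM fell from 38.6 to 14.7 CPM (-1.39, edgeR adjusted p = 7.79e-08), and GATA3 was lower at a low level (-0.97, edgeR adjusted p = 0.00926). ESR1, the gene of the oestrogen receptor named in the label, was at 0.0896 CPM in T47D and 0.162 CPM in T47D-TR on average. With 0 to 4 counts per library its message was near absent in both groups, although the line is labelled ER-positive.

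The libraries held 17199315 to 19867230 counts, and 3 counts equal 0.153 to 0.178 CPM. T47D-TR replicate 3 was the least like its group, since its counts gave 8.36 and 9.58 chi-square units per gene when set against replicates 1 and 2, while these gave 2.79 when set against each other. Without it, 18 members were higher and 30 lower, and the summed alpha- and beta-tubulin levels stayed below T47D, as the values of the other T47D-TR libraries given above show. Of the 46 called members, 34 (12 higher and 22 lower) held their call under each of the 13 alternative settings in which they were tested. The other 12 were TUBA8, TUBD1, TUBGCP2, KIF27, KIF2A, KIF3A, KLC2, KLC4, DYNC2LI1, DYNLT3, DCTN1 and DCTN3.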

How the data were processed

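Poly(A)-selected RNA of T47D and T47D-TR, in 3 libraries each, was sequenced. The submitters' processing notes name HISAT2 2.1.0, DESeq and the build GRCh38. Not given in the sources used here: how reads were counted, with which strand setting and annotation, and where reads that fit several genes went. The spans of 25 members overlap another gene of the table, among them TUBB6 (AFG3L2), KLC2 (PACS1), KIF2A (DIMT1) and KLC4 (MRPL2). What these overlaps did to the counts was not tested. Despite an FPKM name, the deposited table holds raw read counts of each gene. The authors also deposited a normalized mean signal per group, a linear fold change, its log2 value, a p-value and a false discovery rate. Of these, only their log2 fold change and false discovery rate were used, where named.

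Libraries were grouped by their titles. Counts were scaled with TMM, filtered with filterByExpr (minimum count 10, minimum total 15) and tested with the quasi-likelihood test of edgeR 4.0.16 (R 4.3.3), 2-sided, with Benjamini-Hochberg adjustment over all 15961 tested genes. SE come from the library spread of log2 CPM, where a prior count of 2 narrows it for genes with few counts. CPM are given as mean ± SD over 3 libraries where both stand. Per-length levels divide CPM by the exon length in GENCODE v29, and positions and promoters are from RefSeq (GRCh38.p14), where all 76 members were found by identifier. The fit was checked on simulated counts. Alternatives were library size alone, median-of-ratios factors, DESeq2 1.42.0, voom with quantile normalization (limma 3.58.1), other filters, a replicate block and leaving out each library.

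The members, the gene lists and the rule for named genes were chosen with earlier results of these data known. That rule took the 10 largest called rises and falls, the 3 most abundant members of each role group, every tested beta-tubulin, the members removed by the filter, and up to 2 called genes at each end of a related list. Other members named with values, among them KIF3A, KIF3B, KIF13A, KIF2A, KIF15, KIFC1 and KIF21A, were added after their values were seen. The left-out mitotic kinesins are all named. Calls are counted per list with no test over the list. Some items that the rule takes are not reported here.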

Additional observations from a re-analysis of the deposited data

How the results depend on the processing

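No called member changed direction under any of the 13 alternatives. Members called higher were 14 to 19 and called lower 23 to 33. Leaving out each library in turn gave 14 to 18 higher and 23 to 30 lower. The median log2 fold change of all genes shifted most, by -0.11, with voom and quantile normalization, where 14 members were higher and 33 lower. Same-numbered libraries showed no shared deviation from their group means (correlations of -0.021 to -0.005). The labels do not say whether they were prepared as pairs, and these values cannot show it. With the replicate block 19 members were higher and 26 lower, and 5127 and 4827 genes in all.

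Several small counts moved. Without the filter 2 alpha-tubulins were higher, since TUBAL3 then passed. When libraries were left out 1 to 2 were higher, with TUBA4A gained without T47D-TR replicate 2. With a mean of at least 5 CPM fewer genes were tested. There 0 beta-tubulins were called higher (3 lower), 1 dynein heavy, intermediate or light intermediate chain was higher (2 lower), and 2 modifying enzymes and 1 axonemal dynein gene were lower. Of gamma-, delta- and epsilon-tubulins 0 were lower with DESeq2, without the filter, at 5 CPM and with the replicate block (0 to 1 without single libraries). Gamma-tubulin complex proteins called higher were 0 on library size alone (0 to 1 without single libraries) and called lower 4 with voom. Kinesin light chains called higher were 0 with voom (0 to 1), and called lower 1 with DESeq2 (1 to 2). Dynein heavy, intermediate and light intermediate chains called higher were 1 with DESeq2 and 1 with voom. Dynactin subunits called higher were 0 on library size alone (0 to 1). Modifying enzymes called lower were 2 to 5 without single libraries. Axonemal dynein genes called higher were 2 with voom, and called lower 1 with DESeq2 (1 to 2 without single libraries). On library size alone the ratios of summed levels were 0.856 for gamma-tubulin complex proteins, 0.93 for kinesins, 0.935 for kinesin light chains, 0.714 for dynein light chains and 0.929 for dynactin. Where construction does not show the cause, it was not tested. Depth limits the 6 members removed by the filter, with 14 to 39 counts over 6 libraries.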

Other observations

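The axonemal dynein arms, which power motile cilia and are not among the members, were mostly at low levels. Of 18 genes listed, 15 were in the table and 9 were tested. In T47D-TR, 4 were higher (44.4%) and 2 lower (22.2%), beside 32.5% and 30.5% of all tested genes. DNAH2, a heavy chain of the inner arm, rose from 5.88 to 15.4 CPM on average (log2 fold change 1.38, edgeR adjusted p = 1.76e-07), and DNAH5, a heavy chain of the outer arm, fell from 5.58 to 3.30 CPM (-0.76, edgeR adjusted p = 0.000579). The count of genes called lower was 1 without T47D replicate 2 or 3 and without T47D-TR replicate 1 or 2.

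Of 9 tested genes that sever or destabilise microtubules, 3 were higher (33.3%) and 4 lower (44.4%), beside 32.5% and 30.5% of all tested genes. KATNAL2, a katanin-like severing enzyme, rose from 4.52 to 9.23 CPM (1.03, edgeR adjusted p = 1.76e-05). FIGN, which encodes the severing enzyme fidgetin, fell from 3.88 to 2.16 CPM (-0.84, edgeR adjusted p = 0.0114), while its relative FIGNL1 rose from 47.5 to 69.8 CPM (0.55, edgeR adjusted p = 8.61e-06).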
